A study of Mus musculus with 48 samples.

Results

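Densely clustered 3′ UTR sites were defined as listed positions annotated to a 3′ UTR, read by more than 100 reads in at least 1 of 48 libraries, with 3 or more other listed 3′ UTR positions within 50 bases on the same chromosome and strand. There were 4143 such members among the 48715 positions listed for the assay, and among the 4272 3′ UTR positions read that deeply. They lay under 214 gene or transcript names and formed 427 clusters, a cluster being a run of members with at most 50 bases between consecutive ones. Editing was measured by mmPCR-seq, in which loci with known sites are amplified from cDNA on a microfluidic chip and sequenced, and a site's editing level is given as the percentage of its reads that carry G at the genomic A. Whole brain, heart, liver, kidney, small intestine, thymus, spleen and bone marrow (BM) came from 12-week-old male mice on a C57BL/6 background, with 3 biological replicates of each genotype in each tissue. The controls were Adar1+/+ Ifih1-/- and are called WT. The mutants, called E861A, were Adar1E861A/E861A Ifih1-/-, and their ADAR1 is made but cannot deaminate adenosine. The labels do not say whether libraries of different tissues came from the same animals. Every animal, controls included, lacked MDA5, the cytosolic sensor of double-stranded RNA encoded by Ifih1. The tissues were assayed whole, so that a different share of edited transcripts within a cell and a different mixture of contributing cells cannot be told apart.

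ADAR enzymes bind double-stranded RNA and deaminate adenosine to inosine, which reverse transcriptase and the ribosome read as guanosine. In mammalian transcripts such duplexes often form in 3′ UTRs where repeat elements face each other in opposite orientation, and several adenosines of a stretch are then modified, each to its own extent. ADAR1 and ADAR2 are the catalytically active members of the family, ADAR2 being abundant in the nervous system.

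The stretches below show how closely the edited adenosines lie in the clusters described in this section. Each is 29 bases of the mm9 (NCBIM37) reference, written 5′ to 3′ on the edited strand with the described site in the middle. Capitals mark the adenosines edited in at least 1 tissue, that is with more than 1% of the pooled reads of either genotype carrying G.
Mad2l1, chr6:66490261-66490289, plus strand: AtAAagAagcgtttAAAtgtaAacacagc
Rnf168, chr16:32299911-32299939, plus strand: agctgctcttctgaAggtcgcaAgttcAA
Ankrd28, chr14:32513835-32513863, minus strand: gatgttttctttAtAAAAatcaAcatcaA
Ovca2, chr11:74989832-74989860, minus strand: agatttccAccAAAAgacAgtgAgAtggc
Dclre1c, chr2:3377636-3377664, plus strand: tttAAAAtAAAActAgcAccAtggaActc
Gnl3l, chrX:147419984-147420012, minus strand: ctggtctAccgagcAAgttccAggatagc
Slc35e1, chr8:75004240-75004268, minus strand: gtggAgggccagcAAgatAgctaAgtagg
Ppp1r15b, chr1:135034573-135034601, plus strand: gcacttgctAggcaAgcgctctAccActg
Nup155, chr15:8109475-8109503, plus strand: tcagacttccaAgtActggaaatccaAgc
Car5b, chrX:160415950-160415978, minus strand: ttttttaaaagagAAggtctcatctgtgt
Trim12c, chr7:111487806-111487834, minus strand: gtgtgtgtattcttAgtgatcactttctt
Cds2, chr2:132135602-132135630, plus strand: gcatgtaagcAtttAgcaAggtgcctggc
Cds2, chr2:132135355-132135383, plus strand: atcatacAgtgcttAatAtgtgccagAca
Tox4, chr14:52913890-52913918, plus strand: tAAtcctacAActtAggaggcaAgaggca
Fam32a, chr8:74747467-74747495, plus strand: gtctctggagtgctAgaattgaaggcatg
uc012eok.1, chr6:86364920-86364948, plus strand: ctgactAccatAgtAAgttctagactgcc
Rpa1, chr11:75114503-75114531, minus strand: ttcaaacagaaattAtgtcAcAAgtcatt

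In the Mad2l1 stretch 8 adenosines were edited, and in the Dclre1c stretch 12. The Trim12c and Fam32a stretches had 1 each, although 2 and 6 adenosines were listed there. The bases of the Ppp1r15b stretch occur at 16 other places of the genome and those of the other stretches above at none, in exact form.

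A median of 14 other listed positions (range 3 to 35) lay within 50 bases of a member. Clusters held 1 to 34 members (median 9) and spanned a median of 43 bases. Of the 5883 adenosines inside the cluster spans, 4260 were listed (72.4%), and in 92 clusters every adenosine was listed. A GENCODE UTR contained 3535 of the members (85.3%), and none lay in coding sequence. All 4143 members are adenosines of the reference on their listed strand. Being listed was not the same as being edited in these mice. At least 1 tissue gave a level above 1% at 1164 members (28.1%), in 319 clusters and 192 genes, and 108 clusters had no edited member. Among the 3196 other positions read at this depth 662 were edited (20.7%). By crowding, the share edited ranged from 22.0% of the 209 members with 3 to 5 neighbours to 30.4% of the 1159 with 15 to 19 and 26.6% of the 782 with 20 to 35. Of the 59 members with exactly 3 neighbours 20.3% were edited, and of the 49 read 3′ UTR positions with 2, just outside the definition, 24.5%.

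Edited members were mostly seen in few tissues. Of the 1164, 564 were edited in 1 tissue, 130 in 3 and 39 in all 8. Of all members 1644 were covered in all 8 tissues, and a member cannot count as edited in a tissue where it was not covered. Mean WT levels were generally low. At 347 members the mean WT level passed 10% in some tissue and at 53 it passed 50%. Within clusters the levels were uneven. In the 52 clusters with 3 or more members edited in WT brain, the highest site had a median level of 26.8% and the next 9.49%, a median of 11 bases away. The highest site made up a median of 58.0% of the cluster's summed level in WT brain, 48.6% over 50 clusters in WT BM and 46.5% over 69 clusters in WT liver. In the other 5 tissues this median lay between 37.3% (spleen) and 43.3% (thymus), and in single clusters the share ranged from 14.2% in thymus to 97.0% in BM.

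One BM library was much shallower than the rest. Coverage summed over all positions, which counts a read once for every site it spans, was 1861831 in WT BM replicate 2 and 4878116 to 11394093 in the others. That BM library read 1058 members with more than 100 reads, against 2029 to 4037 in the others. Replicates at or below 100 reads were treated as missing at a site, and a site counted as covered where each genotype had 2 or 3 replicates left. Between 2186 members (brain) and 3967 (spleen) were covered. Some WT libraries stood apart from their replicates in level. The mean over the edited members read in all 6 libraries was 0.812% in WT thymus replicate 3 against 5.18% and 11.1%, 0.698% in WT small intestine replicate 2 against 12.3% and 6.19%, and 1.45% in WT heart replicate 2 against 10.3% and 5.71%. In small intestine that library lay within the range of the E861A libraries, 0.442% to 1.55%. The mean differences and the counts of called members in these tissues are therefore given with and without the library.

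Outside the brain, editing of the clusters was much lower in E861A than in WT, while most brain editing was retained. In BM the mean level of the 117 edited members read in all 6 libraries was 9.41% ± 2.57 (SD, n = 3) in WT and 0.565% ± 0.101 in E861A, a fall of 94.0%. The WT libraries were at 8.45%, 12.3% and 7.45% and the E861A libraries at 0.675%, 0.476% and 0.545%. The genotypes did not overlap. Liver went from 10.2% ± 3.09 to 2.45% ± 0.126 (396 members, 76.0%), and kidney from 7.57% ± 1.27 to 1.65% ± 0.0893 (310 members, 78.2%). Spleen had the lowest WT level, 3.63% ± 1.18, against 0.576% ± 0.198 in E861A (180 members, 84.1%). In none of these 4 tissues did a WT library reach down to an E861A library. Thymus went from 5.71% ± 5.17 to 0.432% ± 0.177, small intestine from 6.40% ± 5.81 to 0.960% ± 0.557 and heart from 5.83% ± 4.44 to 0.955% ± 0.268. The differences in these 3 tissues, -5.27, -5.44 and -4.88 percentage points, were -7.23, -7.53 and -6.68 without the WT library that stood apart, and the thymus difference was -3.47 without WT replicate 2. In the brain the mean over 374 members was 10.2% ± 0.802 in WT and 7.74% ± 0.303 in E861A, lower by 23.9% of the WT level. The brain libraries did not overlap either, at 9.37%, 11.0% and 10.2% in WT and 8.05%, 7.72% and 7.44% in E861A. Over the other edited sites read in all 6 libraries the fall was 83.6% in BM, 37.9% in liver and 65.6% in kidney. It was 51.4% in spleen and 19.1% in brain. In thymus, small intestine and heart it was 73.9%, 79.8% and 42.0%, against 92.4%, 85.0% and 83.6% for the members.

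**Figure D1:**
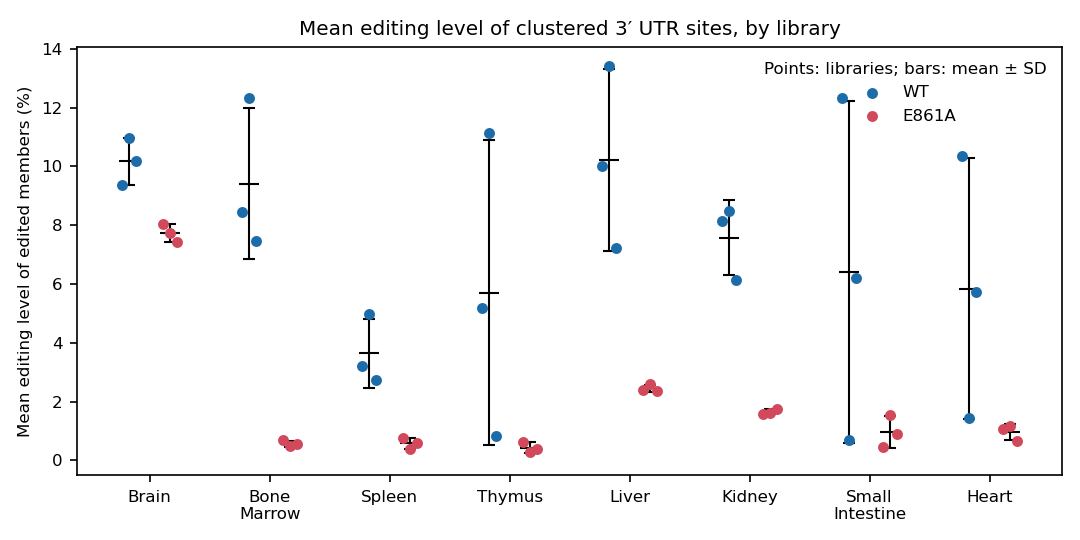
Mean editing level (%) of the edited members read in all 6 libraries of a tissue, 1 point per library, with the mean ± SD of each genotype. The E861A points lie under 3% in the 7 tissues other than brain and between 7.44% and 8.05% in brain, and 1 WT point of thymus, small intestine and heart lies near the E861A points.

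The number of sites above the 1% limit was also counted in each tissue. Of the 372 members edited in WT brain, 261 passed the limit in E861A as well, that is 70.2% (65.3 to 74.6, Wilson 95% interval). The share was 30.2% in liver (136 of 451) and 25.7% in kidney (89 of 346). It was 10.9% in heart (28 of 258), 8.09% in spleen (14 members), 6.73% in BM (23 of 342), 4.53% in small intestine (12 of 265) and 3.44% in thymus (13 of 378). These shares take the members edited in WT as their base. In brain the number edited was 372 in WT and 357 in E861A, and 73.1% of the latter were also edited in WT. This reverse share was 75.6% in liver, 78.8% in kidney and 33.8% in BM. The sets of small intestine and heart rested largely on WT replicate 1, without which 54 members (2 of them also edited in E861A) and 99 members were edited in WT. Heart kept 18.2% without WT replicate 1, spleen 4.79% without E861A replicate 1 and small intestine 2.94% without E861A replicate 3. The intervals for BM (4.52 to 9.89), liver (26.1 to 34.5) and brain do not overlap, but they cover counting of sites only, and sites of a cluster share reads. At members with a WT level above 5%, the E861A level was a median of 64.4% of the WT level in brain (215 members), 3.14% in kidney (140), 1.73% in liver (237) and 1.09% in BM. The read positions that are not members had medians of 59.6%, 18.1%, 15.4% and 2.10% in the same tissues. Of the 237 liver members 39 kept over 50% of the WT level (16.5%, other sites 36.1%), and of the 140 kidney members 23 (16.4%, other sites 20.8%). Choosing members for a high WT level lowers this ratio where replicates vary, and WT libraries did vary, with a median SD of 22.4 percentage points in brain and 22.1 in liver at members above 20%. Chosen instead by a mean of both genotypes above 5%, the medians were 79.5% in brain (225 members), 5.86% in kidney (92), 1.72% in liver (192) and 0.784% in BM (121). Chosen by an E861A level above 5%, they were 113% in brain, 116% in liver (71 members) and 76.0% in kidney (36), and 3 members of BM qualified.

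**Figure D2:**
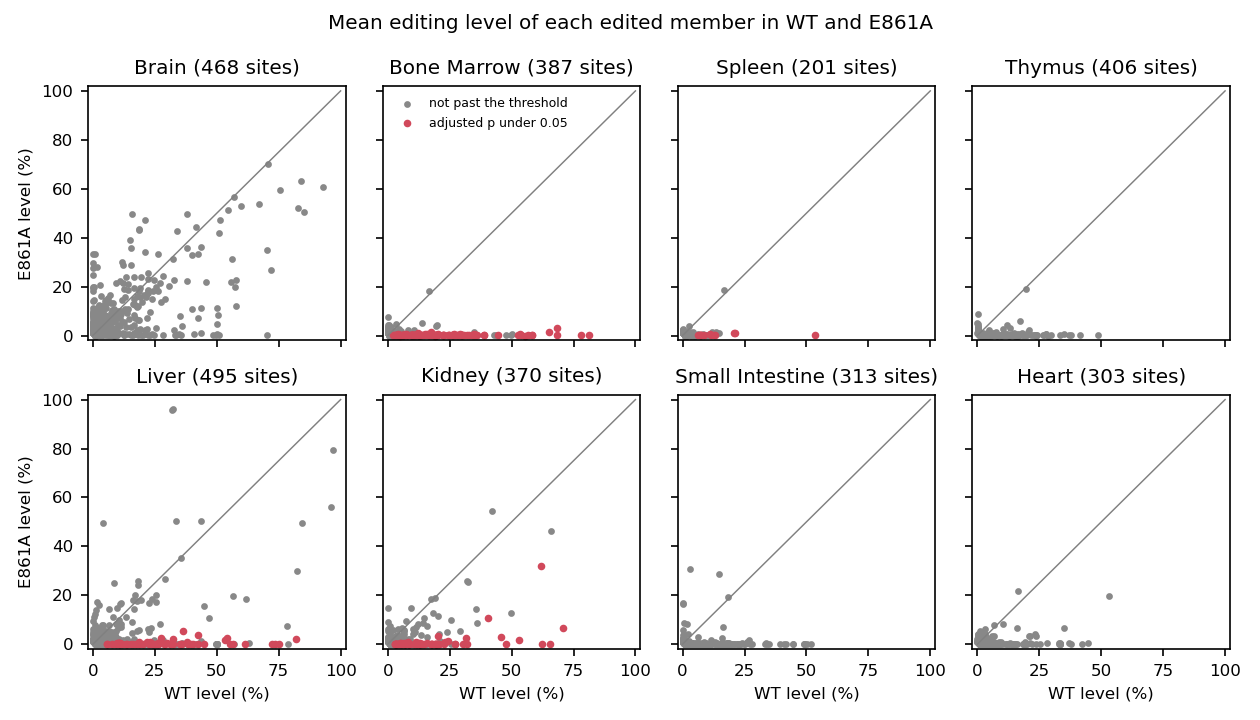
Mean editing level (%) of each edited member in WT (horizontal) and E861A (vertical), 1 panel per tissue, with the diagonal of equal levels. Red points passed the limma threshold, and in BM, spleen, liver and kidney all of them lie below the diagonal.

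Single members were compared with limma on log2((level + 0.01)/(1 − level + 0.01)), fitted over all edited sites of a tissue and adjusted by Benjamini-Hochberg over all of them with a threshold of 0.05. Log2 changes below are on this ratio scale, on which the offset of 0.01 understates the change of low levels. In BM 122 of 387 edited members, in 50 genes, were lower in E861A (31.5% of the members against 27% of all edited sites of the tissue). In kidney 72 of 370 were lower (all sites 17.1%), in liver 57 of 495 (all sites 9.75%) and in spleen 13 of 201 (all sites 8.45%). No member was higher past the limma threshold in any tissue, and of all edited sites 0.704% were higher in spleen and 0% in the other tissues. At an unadjusted p under 0.05, 9 members were higher in brain (all sites 2.1%), 5 in liver (0.886%) and 1 in spleen (1.06%). The unadjusted lower counts were 47 in spleen (all sites 20.8%) and 125 in kidney (31.2%). In liver 18.5% of all sites were lower at that level, and in BM 32.2% were lower and 0.186%, no member among them, higher. The called members had median levels of 16.4% in WT and 0.150% in E861A in BM, 26.3% and 0.140% in liver, 12.9% and 0.110% in kidney, and 11.1% and 0.293% in spleen. In brain, thymus, small intestine and heart limma called 0 members and 0% of all edited sites, while 23, 64, 1 and 16 members were lower at an unadjusted p under 0.05 (all sites 4.83%, 14.2%, 0.484% and 4.71%). The brain count was 5 without WT replicate 3 (all sites 1.12%) and the thymus count 191 without WT replicate 3, which was 44.8% of the edited members against 39.8% of all sites. The small intestine count was 2 without WT replicate 2 (all sites 0.581%) and the heart count stayed 0 without WT replicate 2.

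These counts moved with the libraries used. The share of all edited sites called in the same fit is in brackets. The BM count was 49 (31.2%) and 55 (40%) without WT replicate 1 or 3, fits in which a site needed the shallow WT replicate 2 to be covered, and 76 (19%) without E861A replicate 1. The spleen count was 63 (26.7%) without WT replicate 3 and 6 to 8 (5.09% to 6.09%) without any 1 E861A library. The liver count was 104 (18.6%) and 33 (7.03%) without WT replicate 1 or 2, and 20 (3.41%), 27 (5.23%) and 14 (2.54%) without E861A replicates 1, 2 and 3. The kidney count was 40 (11.7%) and 44 (11.4%) without WT replicate 1 or 2. When WT replicate 3 was left out, 40.8% of the edited kidney members (36.9%) were called, against 19.5% with it. On the untransformed level the lower counts were 9 (2.04%) in BM, 1 (0.704%) in spleen, 0 (0%) in liver and 20 (4.51%) in kidney. With the replicate number as a block no member was called in liver either, so that each liver call named below was lost under both. With 1 estimate of the spread over all 48 libraries brain had 69 lower (15.3%) and 54 higher (11.5%) members. The libraries themselves were also compared with no threshold. In kidney no E861A library reached a WT library, the E861A levels being the lower ones, at 150 of 310 members read in all 6 libraries, and the E861A levels were all above at 1 (all sites 43.5% and 0.219%). In BM this held for 62 and 3 of 117 (all sites 43.9% and 2.31%), in liver for 140 and 4 of 396 (33.1% and 1.11%), in spleen for 51 and 2 of 180 (25.8% and 2.31%) and in thymus for 119 and 6 of 381 (29.3% and 1.87%). Small intestine had 14 and 5 members (7.66% and 4.05%) and heart 23 and 9 of 250 (8% and 4%). The share of members below was 53.0% in BM, 48.4% in kidney and 35.4% in liver, within 10 percentage points of the share of all edited sites.

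Over the tissues, 170 members in 67 genes and 92 clusters were called lower at least once (14.6% of the edited members, against 11.2% of all edited sites), 102 of them in 1 tissue, 44 in 2, 22 in 3 and 2 in 4. The 2 members called in 4 tissues lie in Ppp1r15b and Nup155. Ppp1r15b encodes CReP, the constitutive regulatory subunit of the eIF2α phosphatase. Its site at position 135034587 of chromosome 1 was at 24.3%, 29.2% and 9.96% in WT spleen and at 0.445%, 1.59% and 1.08% in E861A spleen (log2 change -3.69, SE 0.60, limma adjusted p = 0.00047). It was at 49.1% and 28.5% in the 2 covered WT BM libraries and 0.287% to 0.396% in E861A BM (limma adjusted p = 0.00157). The groups did not overlap in either tissue. In liver it went from 38.4%, 27.6% and 7.81% to 0%, 0% and 0.216% (limma adjusted p = 0.0256), and in kidney from 8.06%, 8.48% and 6.80% to 0%, 0.741% and 0.357% (0.00837). The liver call was lost in 8 of 13 alternatives: without WT replicate 2 or any 1 E861A replicate, with the offset of 0.05, on the untransformed level, with the replicate block and under the quasi-binomial model (limma adjusted p of 0.00243 to 0.364 over the alternatives). The calls in the other 3 tissues were lost on the untransformed level as well, that in spleen also under the quasi-binomial model and that in kidney also in the fit over all 48 libraries. WT brain had 0%, 0.775% and 27.6% and E861A brain 0.535%, 0.286% and 6.97%, so the genotypes overlapped there.

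Nup155 encodes a scaffold protein of the nuclear pore. At position 8109489 of chromosome 15, WT BM was at 20.7%, 35.1% and 23.4% and E861A BM at 0.136%, 0.0455% and 0.102% (log2 change -5.05, SE 0.43, limma adjusted p = 0.00078). Kidney went from 20.7%, 22.4% and 9.87% to at most 0.532% (limma adjusted p = 0.00307), spleen from 14.1%, 7.39% and 17.5% to at most 0.0759% (0.000686) and liver from 14.3%, 16.9% and 9.20% to at most 0.470% (0.02). The liver call was lost in 6 of 14 alternatives, among them each fit without an E861A library, the offset of 0.05, the replicate block and the untransformed level. On the untransformed level the calls in BM, spleen and kidney were lost too, with limma adjusted p-values of 0.0659, 0.155 and 0.0619, and those in spleen and kidney also under the quasi-binomial model. Brain kept part of the editing, with 57.0%, 38.4% and 24.9% in WT and 9.76%, 12.3% and 10.0% in E861A. The brain groups did not overlap, and the difference did not pass (limma adjusted p = 0.348).

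**Figure D3:**
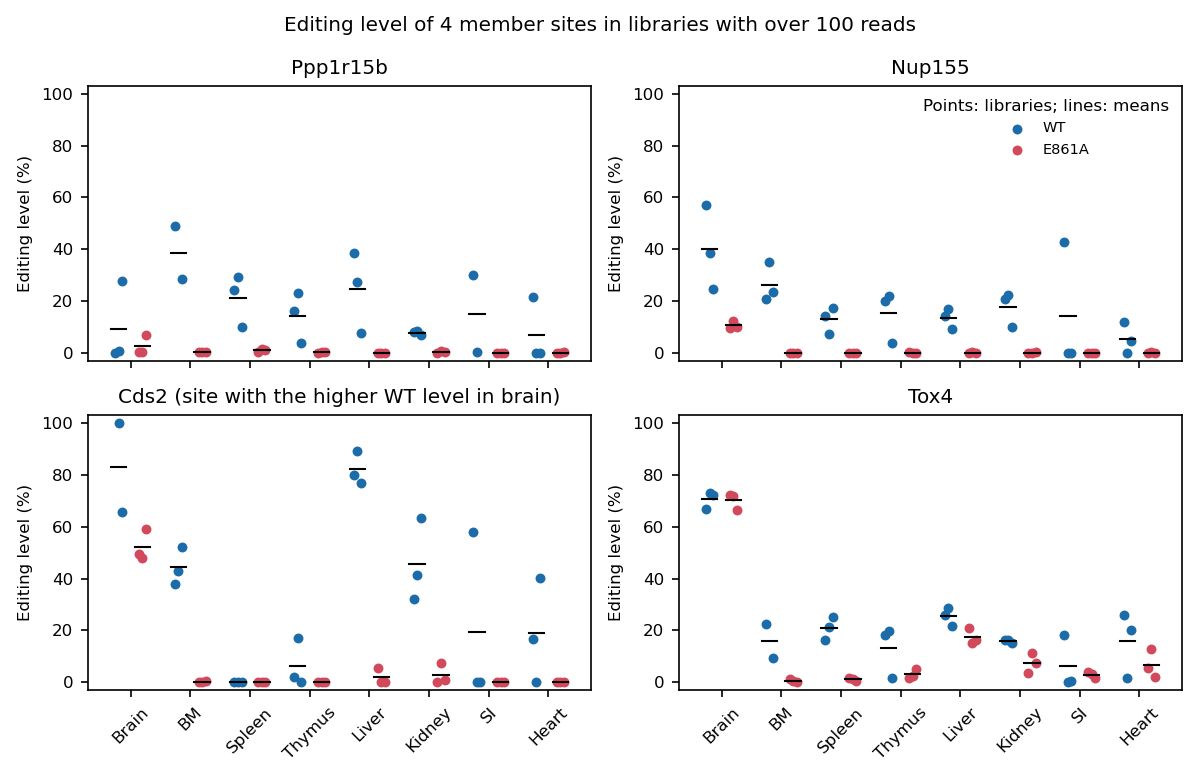
Editing level (%) of 4 members in each library with more than 100 reads, by tissue (SI, small intestine), WT and E861A, with the mean of each genotype as a line. Ppp1r15b and Nup155 are near 0 in E861A of every tissue but brain, Cds2 is near 50% in E861A brain and Tox4 near 70% in both genotypes of brain.

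Car5b, Trim12c and Cds2 followed among the members called in most tissues. Car5b encodes a mitochondrial carbonic anhydrase. Its site at position 160415964 of chromosome X had 75.5%, 87.7% and 54.2% in WT liver against 0.0659%, 0.118% and 0.250% in E861A (log2 change -7.98, SE 0.85, limma adjusted p = 0.00743). In kidney it had 69.7%, 67.2% and 50.3% against 0.270%, 0.231% and 0.0508% (limma adjusted p = 0.000688), and in BM 15.2% and 38.1% against 0.442% and 0.595%, with 2 libraries of each genotype covered (0.0145). The BM call was lost in 4 of 9 alternatives, with a limma or model adjusted p of up to 0.203. No group overlapped. In brain WT was at 58.3%, 61.0% and 25.7% and E861A at 0.267%, 0.145% and 0.348%. That difference did not pass over the edited brain sites (log2 change -6.20, SE 0.79, limma adjusted p = 0.127). In heart, where all 3 WT libraries were edited, at 61.6%, 43.4% and 28.9%, E861A was at 0.267% to 0.402% (limma adjusted p = 0.248).

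Trim12c belongs to the tripartite motif family, whose members include antiviral E3 ubiquitin ligases. At position 111487820 of chromosome 7, WT spleen was at 48.3%, 62.1% and 50.4% and E861A spleen at 0.388%, 0.161% and 0% (log2 change -6.63, SE 0.42, limma adjusted p = 5.26e-09). BM went from 68.8% and 48.0% in the 2 covered WT libraries to at most 0.143% (limma adjusted p = 0.00104). Neither pair of groups overlapped. WT levels were 47.1%, 52.7% and 28.0% in liver and 43.2%, 40.7% and 27.1% in thymus. E861A levels were at most 0.0408% in liver (limma adjusted p = 0.00896) and 0.706% in thymus (0.115). Even WT thymus replicate 3, which was low over the members as a whole, was at 27.1% here. In small intestine the WT levels were 42.0%, 0% and 42.0%, in heart 42.4%, 0.685% and 33.1%, and E861A did not exceed 0.141% in either. Of the 9 members in the Trim12c cluster 4 were edited and 1 was called, where 11.2% of all edited sites were called in at least 1 tissue.

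Cds2 encodes a CDP-diacylglycerol synthase of phospholipid synthesis. Its 16 members lie in 3 clusters, and 2 sites there were both called in BM, liver and kidney, with unlike levels in brain. The site at position 132135616 was at 37.8%, 42.9% and 52.3% in WT BM and at most 0.535% in E861A BM (limma adjusted p = 0.000424). In liver it went from 79.9%, 89.3% and 77.0% to 5.52%, 0.168% and 0.0978% (limma adjusted p = 0.00908), a call lost on the untransformed level and with the replicate block. In kidney it went from 32.3%, 41.3% and 63.5% to 0.13%, 7.60% and 0.712% (limma adjusted p = 0.00879), a call lost under the quasi-binomial model. The genotypes did not overlap in any of the 3 tissues. It was at 100% and 65.7% in the 2 covered WT brain libraries and at 49.4%, 48.1% and 58.9% in E861A brain. The site at position 132135369 was also edited in WT BM, at 67.4%, 69.8% and 29.5%, with 0% in all 3 E861A BM libraries (limma adjusted p = 0.00124). It had 21.3% to 30.0% in WT liver against at most 0.0894% (limma adjusted p = 0.00908) and 20.1% to 41.1% in WT kidney against 0% (0.00172). In brain it was close to unedited in both genotypes, at 0%, 0.0435% and 2.20% in WT and 0%, 2.20% and 0% in E861A. In spleen both Cds2 sites were at or below 0.325% in every library.

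Some calls rested on 2 libraries per genotype or on stretches with other copies in the genome. Exoc8, a subunit of the exocyst that tethers secretory vesicles, had 94.8% and 67.5% in the 2 covered WT BM libraries and 0.212% and 0.362% in 2 E861A libraries. The call was lost under the quasi-binomial model (model adjusted p = 0.0583), and the stretch has 1 other exact copy, without G. Agphd1, now named Hykk and encoding hydroxylysine kinase, had 56.0%, 62.7% and 47.3% in WT liver and at most 0.434% in E861A (limma adjusted p = 0.00742). Its stretch has 3 other exact copies, none with G.

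In the brain, members differed widely in what E861A retained. Of the 215 members above 5% in WT, 119 kept over 50% of the WT level in E861A (55.3%, other sites 55.2%). Another 47 kept under 10% (21.9%, other sites 22.7%). Of the 225 with a mean of both genotypes above 5%, 32 kept under 10% and 86 were higher in E861A than in WT. A further 96 members passed the 1% limit in E861A brain only, at up to 33.5%. Tox4 encodes an HMG-box protein bound to protein phosphatase 1. At position 52913904 of chromosome 14 WT brain was at 67.0%, 72.8% and 72.3% and E861A brain at 72.1%, 71.8% and 66.5%. The groups overlapped fully (log2 change -0.04, SE 0.46, limma adjusted p = 0.991). In spleen the same site fell from 16.5%, 21.2% and 25.1% to 1.46%, 1.16% and 0.628% (log2 change -3.72, SE 0.53, limma adjusted p = 0.000154), and in BM from 22.3% and 9.21% to at most 1.13% (0.0108). The spleen call was lost on the untransformed level (limma adjusted p = 0.116). Liver and kidney lay between. Liver had 26.0%, 28.8% and 21.7% in WT and 20.9%, 15.1% and 16.1% in E861A, and kidney 16.5%, 16.3% and 15.1% against 3.69%, 11.2% and 7.26%. Neither passed (limma adjusted p = 0.516 and 0.15), although no E861A library reached a WT library.

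Fam32a was alike. At position 74747481 of chromosome 8 WT brain was at 47.9%, 65.7% and 56.7% and E861A brain at 58.6%, 55.5% and 55.3%. In BM the site fell from 18.9%, 8.16% and 9.33% to 0.314%, 0.573% and 1.72% (limma adjusted p = 0.0076). In kidney it was at 17.0% to 24.3% in WT and 10.6% to 11.9% in E861A, groups that did not overlap but did not pass (0.177). The highest E861A brain levels were at Tox4 and at uc012eok.1, a transcript overlapping the GENCODE gene Tia1, whose product is a stress granule RNA-binding protein. The latter's site at position 86364934 of chromosome 6 was at 70.8%, 100% and 80.7% in WT brain and 59.1%, 72.7% and 57.2% in E861A brain. It did not pass 0.284% in any BM or spleen library, and in kidney it was at 18.5%, 21.6% and 11.8% in WT against 23.1%, 9.51% and 22.7% in E861A. C330018D20Rik followed at position 57116639 of chromosome 18, with 99.6% and 86.4% in 2 WT brain libraries and 68.6%, 56.7% and 56.7% in E861A brain. Trove2, which encodes the Ro60 RNA-binding protein, had 84.5% and 66.9% in WT brain against 54.4%, 68.2% and 55.8%, while in kidney it fell from 66.2%, 69.1% and 76.5% to 0%, 5.57% and 13.8% (limma adjusted p = 0.00797).

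Other members had little editing left in E861A brain, and some were higher there than in WT. None passed the threshold in brain, and the sites of this paragraph, apart from the first site of uc012eok.1, were chosen after their values were seen, from the larger differences among members whose genotypes did not overlap. All 3 E861A brain libraries lay below all WT libraries at 47 of 374 members (12.6%, all sites 11.6%) and above them at 35 (9.36%, all sites 6.66%). Ttbk2, which encodes a tau-tubulin kinase, had 50.6%, 47.5% and 24.2% in WT and 0.607%, 1.48% and 0.134% in E861A at position 120559557 (limma adjusted p = 0.127). Wipi2, which encodes a phosphoinositide-binding autophagy protein, had a mean of 32.5% ± 8.78 (SD, n = 3) in WT and 2.24% ± 0.658 in E861A at position 143145189 (0.13). In the other direction, the uc012eok.1 site at position 86364931, only 3 bases from the strongly edited one, was at 0%, 0.0917% and 0% in WT and 6.98%, 36.1% and 15.2% in E861A (limma adjusted p = 0.13). The next listed adenosine after the strong site, at position 86364935, had 0.136%, 0.164% and 0.146% against 7.24%, 16.0% and 10.1%. Rsad1, at position 94403347, had 0.106%, 0% and 0% in WT and 26.5%, 47.3% and 0.187% in E861A, so 1 E861A library was near the WT level. Bri3bp, at position 125937848, had 0.691%, 0% and 0.0929% against 23.1%, 11.5% and 8.39%. The largest such difference was at Gnl3l position 147419997, with 0.0602%, 29.5% and 26.7% in WT and 45.7%, 54.3% and 31.1% in E861A.

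Outside the brain, E861A editing above 20% was seen at 16 members in liver, 5 in kidney, 2 in small intestine and 1 in heart, and at 0 in BM, spleen and thymus. Rpa1 encodes the large subunit of replication protein A, which coats single-stranded DNA. Its site at position 75114517 of chromosome 11 was at 99.9%, 94.2% and 97.0% in WT liver and 60.4%, 80.6% and 96.7% in E861A liver. In BM the same site fell from 76.0%, 67.9% and 61.0% to 2.96% and 3.48% in the 2 covered E861A libraries (log2 change -5.64, SE 0.49, limma adjusted p = 0.00124). Kidney had 53.6% to 77.2% in WT and 16.5%, 59.7% and 63.1% in E861A, overlapping groups. Ecm2, which encodes an extracellular matrix protein, fell in kidney from 56.0%, 59.6% and 70.2% to 41.3%, 30.8% and 24.2% (limma adjusted p = 0.0298), the highest E861A level of any called member. In heart it was at 59.9%, 40.8% and 58.2% in WT and 39.4%, 15.6% and 3.81% in E861A (limma adjusted p = 0.566). C330018D20Rik had 46.2%, 27.6% and 56.6% in WT liver and 44.3%, 55.2% and 52.1% in E861A liver at position 57116639. Another 2 members of its cluster, looked up after their values were seen, were called lower in liver. Position 57116640 went from a mean of 32.3% in WT to 2.26% in E861A (limma adjusted p = 0.0319), and position 57116655 from 22.9% to 0.703% (0.0243). The transcript uc008obr.1, overlapping the GENCODE gene Tshz2, had the highest E861A level outside brain, 99.2% and 92.9% in the 2 covered E861A liver libraries at position 169896829, with 0%, 76.5% and 20.5% in WT. Its WT values covered most of the range from 0 to 100%, and the difference did not pass (limma adjusted p = 0.213).

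The 10 clusters with most edited members show how whole stretches behaved. Mad2l1 encodes MAD2 of the spindle assembly checkpoint. Its cluster of 29 members on chromosome 6 had 15 edited ones. In BM 17 members were covered, with a mean of 19.3% and 11.3% in the covered WT libraries and 0.106% to 0.333% in E861A. Its 6 edited members in BM were all called, against 27% of all edited sites in BM. In thymus, where all 29 members were covered, the mean was 9.06%, 14.8% and 0.241% in WT and at most 0.833% in E861A. The low WT value was again that of replicate 3. The top site, at position 66490275, had 94.2% and 42.4% in WT BM (0.0177% ± 0.0306 in E861A, SD, n = 3, limma adjusted p = 0.00532). That call was lost in 2 of 12 alternatives, on the untransformed level and under the quasi-binomial model. Rnf168, a ubiquitin ligase of the DNA break response, had 13 of 17 members edited on chromosome 16. In BM 10 were edited and 5 called, against 27% of all edited sites. The cluster mean there was 21.6% and 4.76% in WT and 0.140% to 0.556% in E861A, and it did not pass 0.393% in any spleen library. Ankrd28 encodes an ankyrin-repeat subunit of protein phosphatase 6. Its cluster had a mean of 15.6%, 16.9% and 10.7% in WT liver and 2.22%, 1.45% and 1.67% in E861A, with 6 of 11 edited members called (9.75% of all edited liver sites). In brain it was at 1.53%, 7.98% and 10.0% in WT and 4.93%, 4.36% and 6.10% in E861A. Ovca2, a serine hydrolase family member, had a cluster mean of 7.84%, 8.69% and 2.80% in WT BM and 0.246% to 0.331% in E861A. In brain the same cluster was at 0.131%, 6.14% and 15.2% in WT and 4.76% to 7.35% in E861A, so that the E861A libraries lay inside the WT range.

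The Dclre1c cluster was the longest, with 34 members on chromosome 2 and 23 edited. Dclre1c encodes Artemis, the nuclease that opens hairpin ends in V(D)J recombination. The cluster mean was 1.48%, 3.82% and 2.30% in WT liver and 2.63%, 2.98% and 2.37% in E861A liver. Its top site, at position 3377650, was at 26.7%, 43.5% and 36.5% in WT liver against 18.6%, 38.3% and 48.3% in E861A, and at 29.6%, 30.1% and 37.3% against 32.6%, 24.8% and 18.3% in kidney. These levels were similar in the genotypes, whereas BM went from 14.3% and 4.68% to at most 0.168% (limma adjusted p = 0.0173). In brain it had 0%, 59.6% and 54.9% in WT and 56.7%, 45.4% and 47.1% in E861A. WT brain replicate 1 alone was at 0, and the sign of the brain difference, 11.6 percentage points higher in E861A, turned without it (-7.48). Gnl3l encodes a nucleolar GTP-binding protein. Its top site, at position 147419998 of chromosome X, fell in liver from 35.5%, 52.9% and 26.3% to at most 0.0616% (limma adjusted p = 0.00908) and in kidney from 12.7%, 24.7% and 16.0% to at most 0.0743% (0.00178). In brain it was at 0%, 0% and 36.1% in WT and 32.8%, 39.8% and 14.4% in E861A. Slc35e1, of a solute carrier family of nucleotide sugar transporters, had 33 members and 13 edited on chromosome 8. Its cluster mean in brain was 6.14%, 3.90% and 2.19% in WT and 1.35%, 1.45% and 1.13% in E861A, and in BM 1.89%, 3.84% and 1.15% against 0.246% to 0.318%. Neither pair of groups overlapped.

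Commd2, Qpctl and uc008obr.1 complete the list. Commd2, a COMM domain protein of endosomal sorting, had its highest cluster means in brain, with 4.82%, 5.45% and 5.37% in WT and 3.84%, 3.97% and 2.69% in E861A, and did not pass 0.272% in any spleen or thymus library. Qpctl, the Golgi glutaminyl cyclase, had 0.226%, 7.19% and 2.47% in WT brain and 0.610% to 1.40% in E861A brain. No member of either cluster was called in any tissue. The uc008obr.1 cluster was covered in full in 4 tissues and had 11 of 18 members edited in liver. Its mean there was 27.9%, 27.9% and 18.4% in WT and 22.1% and 10.4% in E861A replicates 2 and 3. E861A replicate 1 was at 0% over the members it covered. These did not include position 169896829, so its value is not comparable with the others.

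Members of 1 cluster could differ in what E861A retained. Among clusters with 3 or more members above 5% in WT brain, 7 of 27 held both a member that kept over 50% of its WT level in E861A and one that kept under 10%. Liver had 8 of 30 such clusters and kidney 4 of 17. BM (22 clusters), spleen (7), thymus (16) and heart (10) had 0, and small intestine had 1 of 15. In the Gnl3l cluster in brain the E861A level of 6 members ranged from 0.436% to 241% of the WT level, and in the Dclre1c cluster from 0.561% to 258%. The upper ends rested on single WT libraries, since the mean of the cluster in WT brain replicate 1 was 0.0985% in Gnl3l and 0.0262% in Dclre1c. At the same members the highest ratio was 160.7% in Gnl3l and 171.7% in Dclre1c without that library. Without WT replicate 2 it was 326% and 409%, and without WT replicate 3 it was 3886% and 166.9%. In Dclre1c the lowest ratio without WT replicate 2 was 171.7%, with a WT level above 0 at 4 members. The transcription-associated kinase gene Cdk7 had the opposite profile, and all 7 of its members above 5% kept at least 80.2% (57.2% to 111% with 1 WT library left out). In the Slc35e1 cluster in brain none of 5 members kept over 50%, the range being 2.13% to 38.8%, while 1 did without WT replicate 1 and 2 without WT replicate 2. In BM the 6 Mad2l1 members kept at most 1.90% and the 9 Rnf168 members at most 22.6%. These ratios rest on sites chosen for a WT level above 5%, so that members low in WT are not counted in them.

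**Figure D4:**
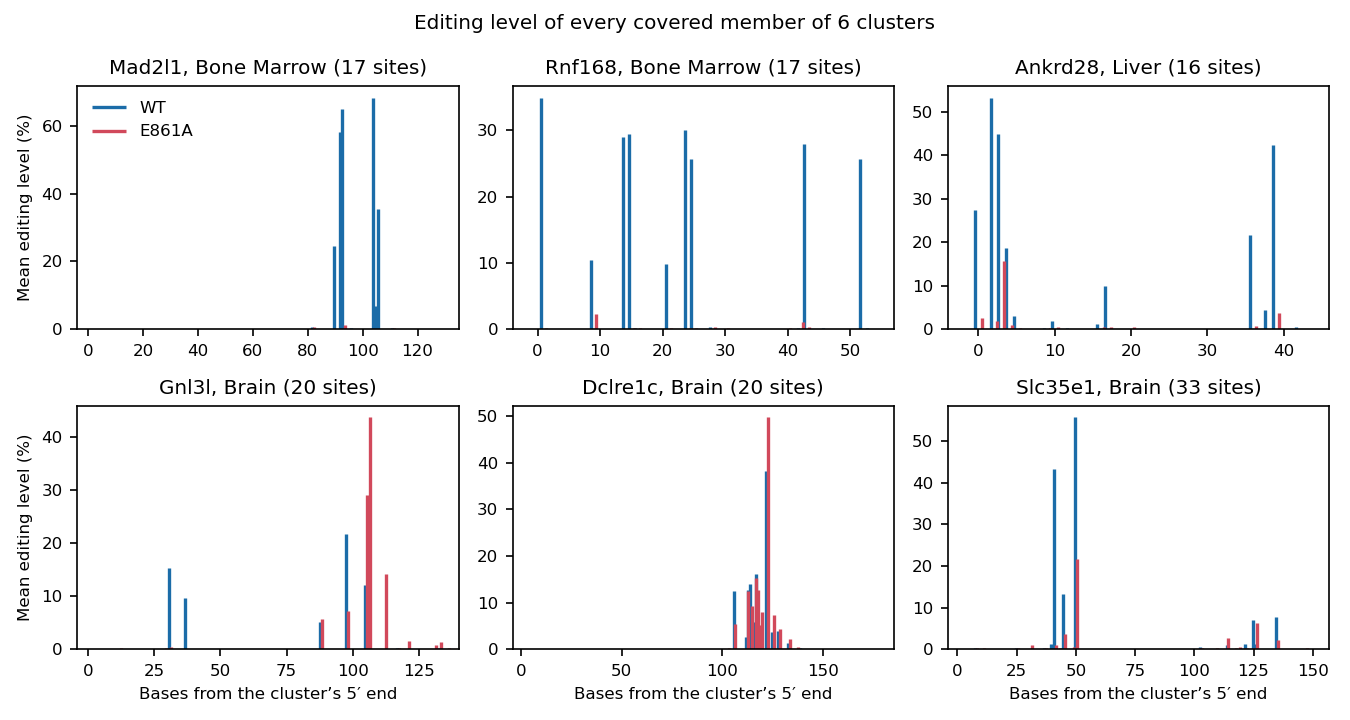
Mean editing level (%) of every covered member along 6 clusters, against the distance in bases from the 5′ end of the cluster, WT in blue and E861A in red. In Mad2l1 and Rnf168 in BM the red bars do not exceed 2.37%, while in the brain panels of Gnl3l and Dclre1c red and blue bars stand side by side.

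The highest site of a cluster was often the same in different tissues. Among clusters with at least 3 members covered in brain, BM and liver and a top level above 5%, WT BM and WT liver shared the top site in 38 of 49 clusters, and WT BM and WT brain in 33 of 45. E861A brain and E861A liver shared it in 23 of 25 and WT brain and E861A brain in 51 of 70. WT BM and E861A brain shared it in 19 of 36. No test was made of these counts, since the clusters differ between the pairs.

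Whether the effect of E861A on a member differed between brain and another tissue was tested with limma as an interaction of tissue and genotype, in 1 fit of 12 libraries for each pair of tissues. Of 529 members compared between brain and BM 20 differed (all sites 2.99%), and of 517 between brain and spleen 11 (1.77%). The counts were 9 of 542 for liver (1.41%), 11 of 481 for kidney (1.76%), 3 of 547 for thymus (0.454%), 2 of 511 for small intestine (0.492%) and 1 of 525 for heart (0.231%). The 57 differences (1.56% of the members compared, all sites 1.30%) became 1, 3 or 5 without E861A replicate 1, 2 or 3 (all sites 0.0176%, 0.0746% and 0.0925%), and 79 or 28 without WT replicate 1 or 2 (all sites 2.84% and 0.863%). When WT replicate 3 was left out, 7.53% of the members compared differed (all sites 5.91%). The 5 largest were in Gnl3l, Bri3bp, Cds2 and uc012eok.1. At Gnl3l position 147419998 the change in liver was lower than in brain by 9.24 on the log2 scale (limma adjusted p within 0.000782 to 0.229 over the alternatives). At Cds2 position 132135369 the change in BM was -6.96 relative to that in brain, where the site was near 0 in both genotypes. Bri3bp, which encodes a membrane protein that binds BRI3, had a pair of such sites. Its site at position 125937297 went from 57.6% and 20.4% to at most 0.150% in BM and was at 0.480%, 4.16% and 3.37% in WT brain against 0.636%, 5.56% and 5.03% in E861A brain. At position 125937846 liver went from 71.0% and 19.1% to 0%, and brain from 0%, 0.0969% and 5.69% to 16.3%, 9.04% and 9.01%. The uc012eok.1 site at position 86364931 was low in both genotypes of kidney apart from WT replicate 1 at 10.4%. All 5 lost the threshold on the untransformed level, with the replicate number as a block and without any 1 E861A replicate. With that block 0 of the 57 differences were called, and the fit treats the 12 libraries as independent. Gnl3l lost it also without WT replicate 1 or 2, and uc012eok.1 without any 1 WT replicate.

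The other members of the genes followed by name are given by their ranges and counts. Over all genes 14.6% of the edited members, and 11.2% of all edited sites, were called lower at least once. Bri3bp had 80 members in 7 clusters, of which 24 were edited and 4 called, and its highest E861A level was 53.9% in brain and 4.00% in any other tissue. Ncl, which encodes nucleolin, had 89 members, the most of the 6 genes followed, with 24 edited and 4 called. The highest level of any member was 54.6% in WT and 51.3% in E861A brain, and 6.32% and 4.10% in BM, not necessarily at the same member. Its 3 called BM members went from 6.22%, 5.77% and 2.28% to 0.202%, 0.137% and 0.0352%. Mgat4a, an N-acetylglucosaminyltransferase of N-glycan branching, was the opposite. The highest level of any member in brain was 0.259% in WT and 0.860% in E861A, whereas WT levels reached 32.6% in BM and 33.0% in liver, with at most 0.534% in E861A of either. All 11 Ppp1r15b members lie in 1 cluster, with 9 edited and 3 called.

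Edited members shared features of sequence that the definition did not use. Of members with T (U in the RNA) just 5′ of the site 38.0% were edited in some tissue, against 29.6% with A, 25.1% with C and 21.4% with G. On the 3′ side the share was 33.5% with G, 28.6% with C, 23.8% with A and 23.6% with T. The 5′ pattern was seen in both genotypes where editing remained. In brain 32.3% of members with 5′ T were edited in WT and 30.3% in E861A, against 7.03% and 6.63% of those with 5′ G. In liver E861A had 11.6% with T and 2.33% with G, and in kidney 9.01% and 1.41%. BM differed. There 21.3% of members with 5′ T and 3.63% with 5′ G were edited in WT, but 1.80% and 2.51% in E861A. Of the 45 members edited only in E861A BM, 35.6% had 5′ G and 6.67% 5′ T, against 7.60% and 38.0% of the 342 edited in WT BM. Their median level was 1.40%, close to the 1% limit. These shares are descriptions, since sites of a cluster share reads and sequence.

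Inverted copies were looked for by aligning each cluster with 50 bases on either side to the opposite strand of the 2000 bases around it (blastn, e-value at most 1e-05). Such a copy lay near 36.1% of the 427 clusters, with a median length of 82 bases, identity of 80.3% and distance of 736 bases. It lay near 132 of 319 clusters with an edited member (41.4%), 58 of 86 with 5 or more edited members (67.4%) and 22 of 108 with none (20.4%). Of the 86 regions around 3′ UTR positions with 0 to 2 neighbours 5 had one (5.81%). The stretches searched differed in length, and a longer one can match more easily: their median length was 150 bases for clusters with 5 or more edited members, 133 for those with none and 101 for the regions with 0 to 2 neighbours. The part of length in these shares was not tested. Of the clusters whose stretches are printed above, Mad2l1 had a copy of 74.6% identity at 319 bases, Rnf168 one of 110 bases (89.1%) at 345 bases and Gnl3l one of 123 bases (80.5%) at 796 bases. Ankrd28 had a copy of 86 bases (80.2%) and Dclre1c one of 69 bases (85.5%), and copies also lay near the Ovca2, Car5b and Rpa1 clusters. None was found within this range for the clusters of Slc35e1, Ppp1r15b, Nup155, Trim12c, Tox4, Fam32a and uc012eok.1, nor for those of both Cds2 sites. The alignment does not show that the stretches pair in the cell, and no match says only that none was found within the range searched.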

How the data were processed

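Editing at listed known sites had been determined by mmPCR-seq in 48 libraries, 3 biological replicates of each genotype in 8 tissues. For every listed position and library, the authors deposited 2 read counts, those covering it and those edited, together with the editing level. The deposited editing level is a fraction of edited reads, and it differed from the ratio of the deposited counts by at most 0.0005. The submitters' processing notes name STAR, SAMtools and mm9, with roles and versions not given in the sources used here. The deposited files hold each replicate on its own. Whole-series copies of the levels and coverage were not used, and neither was a filter on annotation other than that of the 3′ UTR.

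Here levels were recomputed from the counts. Covered sites of a tissue were those that over 100 reads spanned in 2 or 3 replicates of each genotype. Of these, edited sites were those whose level, from reads summed over the replicates of a genotype, passed 0.01 in WT or in E861A. The comparison of genotypes used limma 3.58.1 (R 4.3.3, lmFit and eBayes with a trend) on log2((level + 0.01)/(1 − level + 0.01)) over all edited sites of a tissue, and p-values adjusted by Benjamini-Hochberg were called under 0.05. The interaction of tissue and genotype was fitted over 12 libraries. The scripts were tested on simulated data. Sequences came from the mm9 (NCBIM37) reference, and inverted copies were sought with blastn 2.17.0. Tables and plots used Python 3.11.15, pandas 2.3.3, numpy 2.4.6 and matplotlib 3.10.9.

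Sites were named by rule: the 10 clusters with most edited members and their highest site, up to 3 members per tissue with the largest called fall, up to 5 with the highest E861A level in brain and 5 elsewhere, up to 5 called in most tissues, up to 5 with the largest interaction, and the members of Bri3bp, Trim12c, Ncl, Mgat4a, Cds2 and Ppp1r15b. A gene named by this rule is not reported here. The members and lists were chosen with earlier results of these data known. Alternatives were another coverage minimum, edited limit, offset and scale, a quasi-binomial model, the study's criterion, a fit over all libraries, a replicate block and leaving out each library. Choosing members by the mean of both genotypes or by the E861A level was added after seeing the data. No molecular identifiers are described for the amplified reads in the sources used here. The intervals given cover the counting of sites only.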

Additional observations from a re-analysis of the deposited data

Results flagged for a closer look

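At 5 members the change from WT to E861A differed between brain and another tissue by the limma interaction, as the difference of the log2 changes (other tissue minus brain). The difference was -9.24 at Gnl3l position 147419998 in liver, with a limma adjusted p of 0.000782 to 0.229 over the alternatives, 2 of 9 of which kept the call. It was -9.05 at Bri3bp position 125937846 in liver (0.0126 to 0.239, 2 of 7). It was -6.96 at Cds2 position 132135369 in BM (0.00168 to 0.184, 4 of 9). It was -6.19 at Bri3bp position 125937297 in BM (0.0205 to 0.269, 2 of 7). It was -6.01 at uc012eok.1 position 86364931 in kidney (0.0385 to 0.412, 1 of 9).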

How the results depend on the processing

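All differences of mean editing level kept their direction under every alternative run. With an edited limit of 0.05, which leaves fewer and more highly edited members, the difference was -4.25 percentage points in brain, -17.1 in BM, -9.75 in spleen, -12.1 in thymus, -13.96 in liver, -12.9 in kidney, -14.1 in small intestine and -13.9 in heart, and the share of WT-edited members also edited in E861A was 63.4% in brain, 2.31% in BM, 2.50% in spleen, 0.746% in thymus, 20.7% in liver, 18.8% in kidney and 6.67% in heart. The members called are given below as a percentage of the edited members of the tissue, against 31.5% lower in BM, 6.47% in spleen, 11.5% in liver, 19.5% in kidney and 0% elsewhere, and 0% higher, in the comparison as reported. The share of all edited sites called in the same fit is in brackets. That limit gave 65.1% lower in BM (59.6%), 35.0% in spleen (43.9%), 26.7% in liver (25.1%), 46.6% in kidney (42.9%), 0.746% in thymus (1.18%) and 2.15% in heart (2.94%), and 0.763% higher in liver (0.597%). The BM and kidney counts, 114 and 68, stayed close to the 122 and 72 reported, over fewer members. The offset of 0.05 gave 19.9% lower in BM (17.8%), 3.98% in spleen (5.63%), 3.43% in liver (2.81%) and 11.6% in kidney (10.5%), and the untransformed editing level 2.33% (2.04%), 0.498% (0.704%), 0% (0%) and 5.41% (4.51%). A coverage minimum of 500 reads gave 3.33% lower in spleen (6.43%), 0.294% in thymus (0.449%) and 2.81% in heart (2.43%), and 0.473% higher in liver (0.342%). The quasi-binomial model gave 0.214% lower in brain (0.124%), 1.49% lower (2.46%) and 0.498% higher (0.352%) in spleen, and 0.985% lower in thymus (0.756%), 6.67% in liver (5.76%), 4.86% in kidney (4.32%) and 0.330% in heart (0.224%). The study's criterion, with no adjustment, gave 5.98% lower (5.69%) and 2.99% higher (2.10%) in brain, 6.40% lower in thymus (5.48%), 0.606% higher in liver (0.739%), and 2.24% lower in small intestine (1.69%) and 2.97% in heart (2.91%). The fit over all 48 libraries gave 14.7% lower (15.3%) and 11.5% higher (11.5%) in brain, 4.65% higher in BM (6.69%), 23.4% lower (22.5%) and 0.498% higher (0.352%) in spleen, 18.5% (16.8%) and 0.985% (0.945%) in thymus, 34.5% (30.3%) and 1.62% (2.66%) in liver, 1.62% higher in kidney (1.5%), 9.90% lower (9.93%) and 1.28% higher (1.69%) in small intestine, and 4.62% (4.26%) and 0.990% (2.24%) in heart. The cause of these shifts was not tested.

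The labels do not say whether replicate numbers pair the samples, and the correlations below cannot settle it. Deviations of same-numbered libraries correlated between -0.119 and 0.238. All 3 correlations were positive in brain, spleen and thymus, and in no tissue were all 3 above 0.1. With the replicate block 0% of the edited members were called lower in liver (0% of all edited sites), 12.7% in kidney (11.3%) and 0.493% in thymus (0.378%), with 106 members in BM and 17 in spleen (23.4% and 9.86% of all edited sites). With the block 0% of the members differed between brain and another tissue, against 1.56% (57 of 3652 comparisons) without it, and on the untransformed level 0%. Over all edited sites the block also gave 0%, against 1.3% without it.

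Leaving out 1 library at a time gave 0% to 1.36% of the edited members lower in brain (0% to 1.12% of all edited sites), 21.2% to 45.8% in BM (19% to 40%), 3.12% to 30.9% in spleen (5.09% to 26.7%), 0% to 44.8% in thymus (0% to 39.8%), 3.18% to 21.6% in liver (2.54% to 18.6%), 11.9% to 40.8% in kidney (11.4% to 36.9%), 0% to 0.775% in small intestine (0% to 0.581%) and 0% in heart (0%). The higher ones were 0% to 0.817% in brain (0% to 0.801%), 0% to 0.490% in spleen (0.678% to 1.05%), 0% to 0.459% in liver (0% to 0.524%), 0% to 0.310% in kidney (0% to 0.213%) and 0% elsewhere (0%). The members that differed between brain and another tissue made up 0.0284% to 7.53% (0.0176% to 5.91% of all edited sites). Mean differences ranged from -2.86 to -2.31 in brain, -10.5 to -8.40 in BM, -3.48 to -2.69 in spleen, -7.23 to -3.47 in thymus, -9.41 to -6.91 in liver, -6.44 to -5.61 in kidney, -7.53 to -4.96 in small intestine and -6.68 to -4.54 in heart. The shares ranged from 67.3% to 71.7% in brain, 4.72% to 8.21% in BM, 4.79% to 10.3% in spleen, 2.38% to 4.99% in thymus, 25.6% to 33.1% in liver, 20.1% to 26.7% in kidney, 2.94% to 6.11% in small intestine and 7.54% to 18.2% in heart. Differences in brain that turned direction, none of them called, were those of Dclre1c position 3377650 (-7.48 to 22.3 points), Fam32a position 74747481 (-4.74 to 4.14, with 0.160 among them), Ovca2 position 74989846 (-20.8 to 16.9) and Tox4 position 52913904 (-2.46 to 1.24). The calls of Trove2 and Car5b in kidney, Cds2 position 132135616 in BM, Mad2l1 position 66490075 in BM and Trim12c in BM and spleen held under every alternative that could be run for them.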

Other observations

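Iqgap1, which encodes a scaffold protein of the actin cytoskeleton, had 1 member above 10% in every one of the 48 libraries, at position 87857174 of chromosome 7. It was chosen after its values were seen. Its level ranged from 10.8% to 27.7% with a median of 18.6%, and was 17.9% ± 2.48 (SD, n = 24) over the WT libraries and 19.4% ± 2.34 (SD, n = 24) over the E861A libraries. These 24 libraries are 3 from each of 8 tissues, which may share animals. The 29 bases around it have 0 other exact copies in the mm9 reference. The site counts among the edited members of every tissue, so its level is part of the E861A means given above. In each E861A library of BM and spleen it was the 1 averaged member above 10%.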
